A study of Homo sapiens with 6 samples.

Results

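The MiT/TFE factors TFEB, TFE3, MITF and TFEC and the regulators that hold them at the lysosome, FLCN, FNIP1, FNIP2, RRAGA, RRAGC and RRAGD, were examined in HFF-2 human dermal fibroblasts (HDFs). These 10 genes were set by name, of 62754 genes in the table, and 9 of the 10 passed the filter on low counts that left 16931 genes for testing. HDFs of the SCR group (genotype given as WT) carried a scramble hairpin, and HDFs of the TFEB-KD group carried a single hairpin against TFEB, both delivered by lentivirus and followed by puromycin selection. All 6 libraries, 3 per group, came from day 4 of exposure to the oxidant tBHP (tert-butyl hydroperoxide) at 40 μM, given for 1 h, 2 times per day, so no unstressed HDFs were among them. The depth of the SCR libraries was 55135426, 38769620 and 49992885 estimated counts (replicates 1, 2 and 3, the order kept throughout), and that of the TFEB-KD libraries was 42433767, 43002866 and 51499335. The study's statistics section describes its experiments as run with independent biological replicates, but the labels do not say how these libraries were replicated. The p-values measure the spread between these libraries.

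MiT/TFE factors are basic helix-loop-helix leucine zipper transcription factors that bind E-box sequences and switch on genes of lysosomes and autophagy. In nutrient-replete cells the Rag GTPases, heterodimers of RagA or RagB with RagC or RagD, recruit these factors to the lysosome, where mTORC1 phosphorylates them. The phosphorylated factors bind 14-3-3 proteins and stay in the cytoplasm. FLCN, in complex with FNIP1 or FNIP2, stimulates GTP hydrolysis by RagC and RagD and is thereby needed for this recruitment, and RRAGC, RRAGD and FLCN are themselves known target genes of the factors. All values below are RNA levels and say nothing of where the proteins were or whether they were phosphorylated.

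Of the 9 genes tested, RRAGC, FNIP1 and RRAGD were higher in TFEB-KD HDFs and TFEB was lower. RRAGC, which encodes RagC, rose to 160.4% of its SCR level and FNIP1 to 131.9%, whereas TFEB fell to 57.6%. RRAGD rose too, but from 6 to 18 counts per SCR library, and its call was lost in 10 of 18 alternative analyses, which leaves RRAGC and FNIP1 called higher (with glmTreat, a test against the threshold itself, RRAGC alone). A gene was called where edgeR's quasi-likelihood test gave a Benjamini-Hochberg adjusted p under 0.05 over all genes tested together with an absolute log2 fold change over 0.36. By this rule 9.99% of all genes were called higher (3 of the 9 here) and 15.0% were called lower (1 of the 9 here). An adjusted p under 0.05 without the fold change threshold was reached by 7 of the 9 genes, against 44.7% of all genes. The SCR and TFEB-KD libraries did not overlap in CPM (counts normalised by library total and TMM factors) for 7 of the 9, against 55.4% of all genes. In these bulk libraries, fewer cells of a type and less RNA per cell cannot be told apart.

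**Figure D1:**
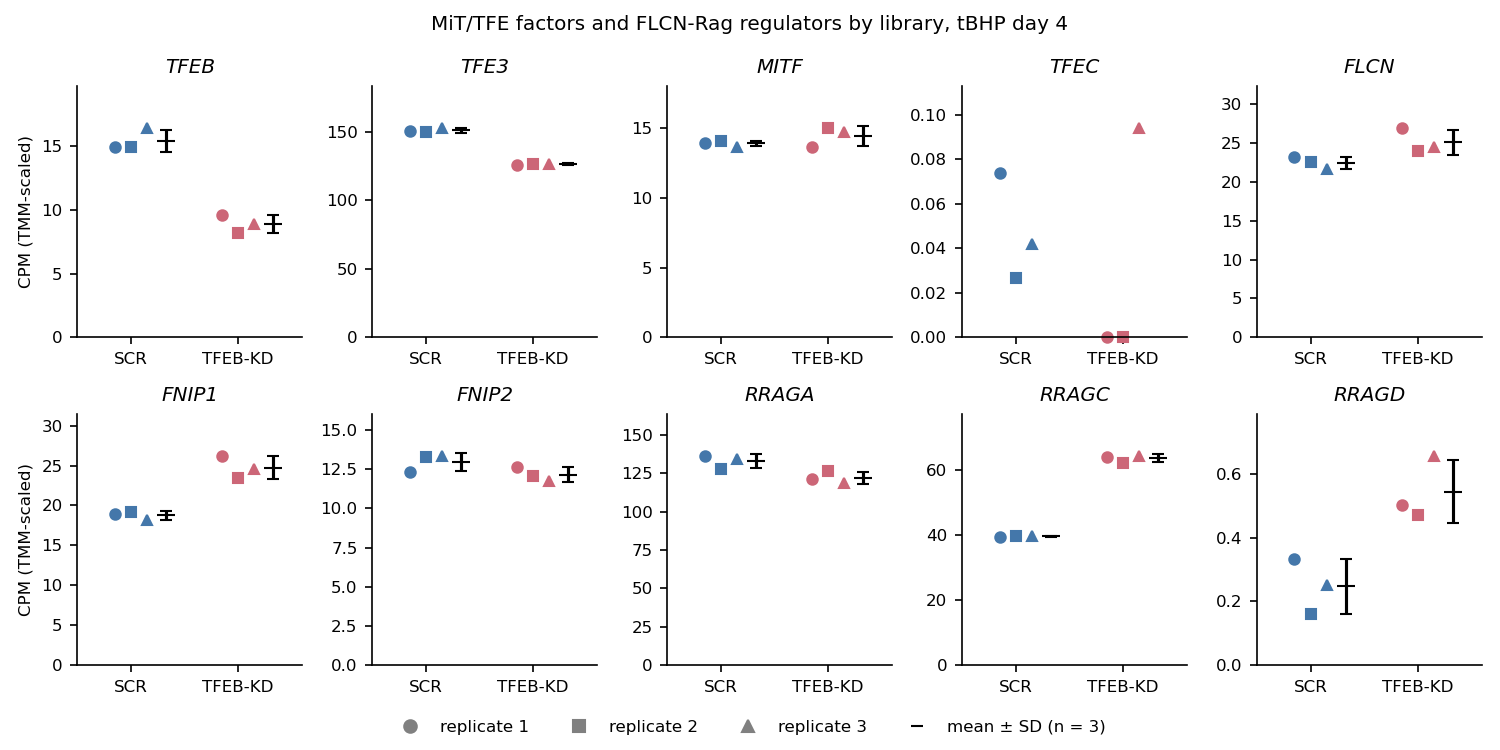
CPM (TMM-scaled, linear axis from 0) of the 10 genes in each library, with the mean ± SD of 3 libraries per group except for TFEC, which had 0 to 5 counts per library. The groups stood apart for TFEB, TFE3, FLCN, FNIP1, RRAGA, RRAGC and RRAGD, and overlapped for MITF, FNIP2 and TFEC.

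TFEB (ENSG00000112561.19, chr6:41683978-41736259, minus strand; GRCh38, GENCODE 44) was the hairpin's target. Its CPM was 14.95, 14.93 and 16.44 in SCR and 9.62, 8.20 and 8.87 in TFEB-KD. Every TFEB-KD library lay below every SCR library. The log2 fold change was -0.80 (SE 0.077, 95% confidence interval -0.97 to -0.62), with an adjusted p of 1.37e-05 by edgeR with Benjamini-Hochberg adjustment. TFEB was called lower in all 19 alternative analyses, with log2 fold changes from -0.84 to -0.70. TFEB was the gene targeted, so its fall was used as a check of the labels. Ordered from the lowest log2 fold change, TFEB was number 1343 of the 16931 genes.

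TFE3 (chrX:49028726-49043410, minus strand), which shares many target genes with TFEB, was the most abundant of the 4 factors. Its CPM was 150.8, 149.8 and 153.0 in SCR and 125.5, 126.5 and 126.9 in TFEB-KD. The groups were tight and separate, with TFEB-KD at 83.5% of SCR. The log2 fold change of -0.26 (SE 0.037, interval -0.34 to -0.18) had an adjusted p of 2.43e-04 by edgeR with Benjamini-Hochberg adjustment and was smaller than the fold change threshold, so TFE3 was not called. It was not called in any of the 19 alternatives, where its log2 fold change ran from -0.28 to -0.17.

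MITF (chr3:69739456-69968336, plus strand), best known for its role in melanocytes, had 13.96, 14.08 and 13.69 CPM in SCR and 13.67, 15.03 and 14.73 CPM in TFEB-KD. The groups overlapped. Its log2 fold change of 0.058 (SE 0.062, interval -0.079 to 0.20) had an adjusted p of 0.474 by edgeR with Benjamini-Hochberg adjustment, and the sign turned where transcript length entered. TFEC (chr7:115935148-116159896, minus strand), a family member with narrow expression, had 4, 1 and 2 counts in SCR and 0, 0 and 5 counts in TFEB-KD. It was too low to be tested, and a difference was not detectable at this depth.

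Because TPM is scaled for transcript length, the 4 factors could be added on that scale. Their summed level was 73.42, 72.76 and 73.92 TPM in SCR and 60.7, 59.71 and 59.34 TPM in TFEB-KD. TFEB made up 11.59, 11.86 and 12.42% of the sum in SCR and 9.05, 8.01 and 8.16% in TFEB-KD. TFE3 was the major transcript of the family in both groups and TFEB came second, with TFE3 at 81.8% ± 0.129 (SD, n = 3) of the sum in SCR and at 84.4% ± 0.0958 (n = 3) in TFEB-KD. The TFE3 to TFEB ratio was 6.85 ± 0.243 in SCR and 10.1 ± 0.663 in TFEB-KD (SD, n = 3 each). None of these measures overlapped between groups, and each had p = 0.1 in an exact two-sided permutation test, which is the smallest p that 3 libraries against 3 allow. TFEB, the hairpin's target, is part of each measure. A lower TFEB level by itself lowers the sum and the TFEB share and raises the other shares and the ratio. Within the sum, TFE3 went from 60.0 to 50.6 TPM and TFEB from 8.77 to 5.04 TPM. MITF made up 6.18% of the sum in SCR and 7.19% in TFEB-KD, again without overlap and with p = 0.1 in the exact test, while its own level was 4.53 TPM in SCR and 4.30 TPM in TFEB-KD, which overlapped.

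**Figure D2:**
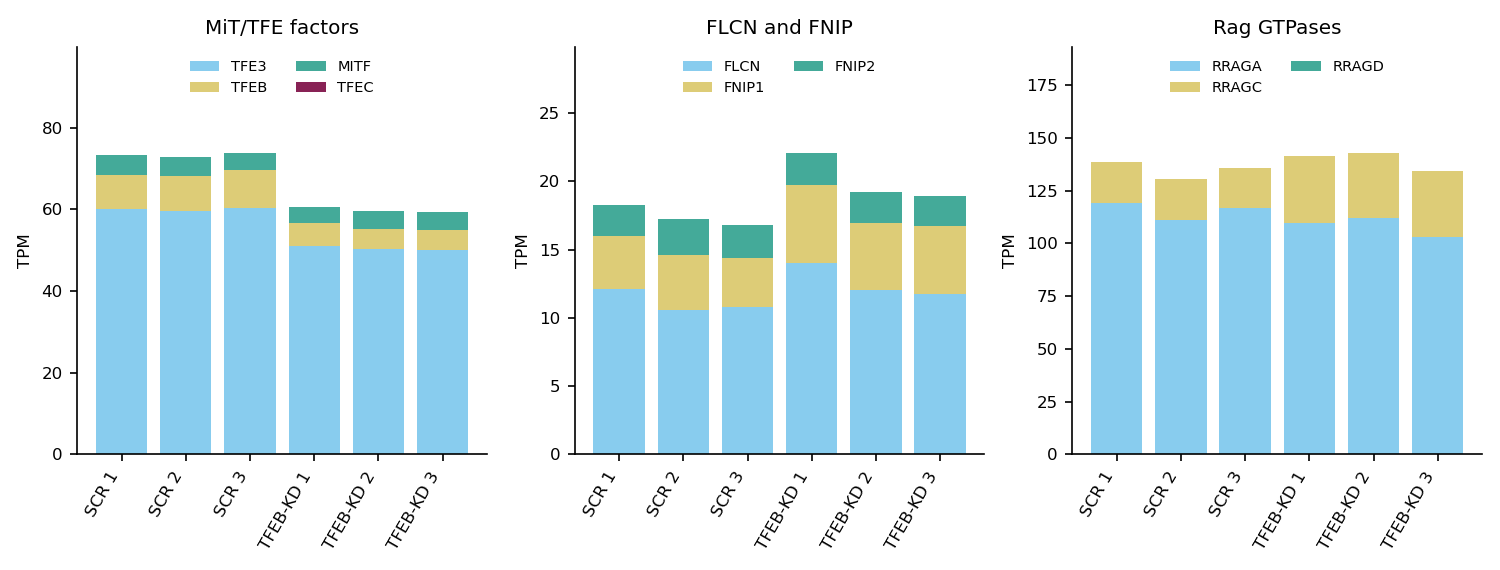
Stacked TPM (linear axis from 0) of the MiT/TFE factors, of FLCN with FNIP1 and FNIP2, and of the 3 Rag GTPase genes, 1 bar per library. TFE3 and RRAGA form most of their bars in all 6 libraries, and the RRAGC segment is taller in the 3 TFEB-KD libraries than in the 3 SCR libraries.

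RRAGC (ENSG00000116954.8, chr1:38838198-38859772, minus strand) had 2130, 1492 and 1892 counts in SCR, or 39.37, 39.62 and 39.68 CPM. TFEB-KD libraries had 2795, 2755 and 3413 counts, or 63.99, 62.08 and 64.29 CPM. The gap between the groups was wide against a spread of 0.163 CPM (SD, n = 3) in SCR and 1.20 CPM in TFEB-KD. The log2 fold change was 0.68 (SE 0.041, interval 0.59 to 0.77), with an adjusted p of 4.27e-07 by edgeR with Benjamini-Hochberg adjustment. RRAGC was called higher in all 19 alternatives, with log2 fold changes of 0.67 to 0.77.

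Among the members, E-boxes were found in the promoters of RRAGC and FNIP1, which were called higher. The RefSeq promoter table (GRCh38.p14, 250 bases before to 50 after the start) held 14 windows for 8 of the 10 genes, all but RRAGA and RRAGD. The letters searched, on both strands, were CACGTG (the palindromic E-box core, which reads the same on both), TCACGTGA (which contains it) and TCATGTG, known as the M-box. TCACGTGA was in none of the 14 windows, against 0.98% of all windows in the table, and TCATGTG was in 1 window of FNIP2, which was not called, against 2.92%. CACGTG was found 3 times, once for RRAGC and 2 times for FNIP1, and in none of the windows of the other 6 genes. The 250 bases before each of these starts are shown 5′ to 3′ on the strand of the gene, from chr1:38859773-38860022 for RRAGC and chr5:131797018-131797267 for FNIP1 (both minus strand), with CACGTG in capitals.
RRAGC: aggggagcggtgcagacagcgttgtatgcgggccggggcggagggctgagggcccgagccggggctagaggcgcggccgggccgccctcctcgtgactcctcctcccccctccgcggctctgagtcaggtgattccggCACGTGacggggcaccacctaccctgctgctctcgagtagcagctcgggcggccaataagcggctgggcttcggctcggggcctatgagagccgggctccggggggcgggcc
FNIP1: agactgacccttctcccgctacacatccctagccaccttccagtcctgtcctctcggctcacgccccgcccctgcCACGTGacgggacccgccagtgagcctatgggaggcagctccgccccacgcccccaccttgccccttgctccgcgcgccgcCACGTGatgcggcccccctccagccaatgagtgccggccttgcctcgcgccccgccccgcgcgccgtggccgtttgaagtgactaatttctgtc
The RRAGC E-box began 112 bases before the start, and the FNIP1 E-boxes began 175 and 94 bases before it. All 3 were followed by an A, a feature seen after they were printed. CACGTG was in 7.26% of all 35116 promoter windows in the table and CACGTGA in 3.71%. Counted by gene, as for the members, 12.2% of the 11750 tested genes with a window held CACGTG and 7.04% held CACGTGA. Of the 1430 tested genes with CACGTG in a window, 10.5% were called higher and 13.4% lower, against 9.69% and 15.4% of all 11750. A match of letters is no evidence of binding, and no binding was measured.

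RRAGD (chr6:89364616-89412273, minus strand), which encodes RagD, the paralog of RagC, had 18, 6 and 12 counts in SCR and 22, 21 and 35 counts in TFEB-KD. These are 0.333, 0.159 and 0.252 CPM against 0.504, 0.473 and 0.659 CPM, without overlap. The log2 fold change was 1.102 (SE 0.34, interval 0.35 to 1.86), with an adjusted p of 0.0219 by edgeR with Benjamini-Hochberg adjustment. On the TPM scale the groups overlapped, with 0.0850, 0.0400 and 0.165 TPM in SCR and 0.131, 0.121 and 0.165 TPM in TFEB-KD. RRAGD was called in 8 of 18 alternatives, and leaving out SCR replicate 2, SCR replicate 3 or TFEB-KD replicate 3 ended the call (log2 fold changes 0.90, 1.09 and 0.96, edgeR adjusted p of 0.0678, 0.05 and 0.0771). DESeq2 on the same genes gave a log2 fold change of 1.12 with an adjusted p of 0.0635. Where transcript length entered, the log2 fold change was smaller and not called, at 0.58 in DESeq2 with length factors (adjusted p 0.551) and 0.62 in edgeR with length offsets (adjusted p 0.370). It was 0.33 and 0.056 in limma on log2(TPM + 0.1) and log2(TPM + 1), also not called. There the added constant shrinks the fold change as well, since RRAGD was at 0.0967 TPM in SCR and 0.139 TPM in TFEB-KD. RRAGD made up 0.499% ± 0.328 (SD, n = 3) of the RRAGC and RRAGD TPM in SCR and 0.443% ± 0.0739 in TFEB-KD, which overlapped (p = 0.8, exact two-sided permutation test). Almost all of the RagC and RagD transcript was therefore RRAGC in both groups.

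RRAGA (chr9:19049427-19051025, plus strand), encoding RagA, is a gene with 1 annotated transcript and was the most abundant of the 10 on the TPM scale. It had 136.5, 127.6 and 134.1 CPM in SCR and 121.4, 126.3 and 118.4 CPM in TFEB-KD. The groups did not overlap in CPM, which carries TMM factors, but did in TPM, which does not. Divided by these factors, the RRAGA TPM values do not overlap either. The log2 fold change of -0.12 (SE 0.044) had an adjusted p of 0.0459 by edgeR with Benjamini-Hochberg adjustment, under the fold change threshold, and the adjusted p stayed under 0.05 in 2 of 19 alternatives. The ratio of RRAGA to RRAGC in TPM was 6.13, 5.79 and 6.10 in SCR and 3.43, 3.67 and 3.31 in TFEB-KD, without overlap (p = 0.1, exact test). The summed TPM of RRAGA, RRAGC and RRAGD was 135.1 ± 4.13 in SCR and 139.7 ± 4.62 in TFEB-KD (SD, n = 3), and these overlapped (p = 0.3, exact test). Divided by the TMM factors, the sums still overlap, but the SCR mean is then the higher one.

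FLCN (chr17:17212212-17237188, minus strand) had 23.22, 22.49 and 21.60 CPM in SCR and 26.95, 23.93 and 24.45 CPM in TFEB-KD. The groups did not overlap in CPM, but they did in TPM. Its log2 fold change of 0.16 (SE 0.059, interval 0.030 to 0.29) had an adjusted p of 0.0477 by edgeR with Benjamini-Hochberg adjustment and did not reach the fold change threshold. The adjusted p was under 0.05 in 7 of 19 alternatives. FLCN was the most abundant of the FLCN complex genes in TPM, at 11.2 in SCR and 12.6 in TFEB-KD.

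FNIP1 (ENSG00000217128.13, chr5:131641714-131797017, minus strand), a partner subunit of FLCN, had 18.96, 19.15 and 18.14 CPM in SCR and 26.24, 23.46 and 24.53 CPM in TFEB-KD. All TFEB-KD libraries lay above all SCR libraries. Its log2 fold change of 0.40 (SE 0.057, interval 0.27 to 0.53) had an adjusted p of 2.30e-04 by edgeR with Benjamini-Hochberg adjustment, and it was called in 18 of 19 alternatives. The exception was glmTreat, which tests whether the change exceeds the threshold itself and gave an adjusted p of 0.407. FNIP2 (chr4:158769026-158908050, plus strand), the other partner, had 12.33, 13.28 and 13.38 CPM in SCR and 12.68, 12.08 and 11.74 CPM in TFEB-KD, which overlapped. Its log2 fold change of -0.095 (SE 0.066, interval -0.24 to 0.051) had an adjusted p of 0.271 by edgeR with Benjamini-Hochberg adjustment. FNIP1 made up 63.02, 60.48 and 58.96% of the FNIP1 and FNIP2 TPM in SCR and 70.23, 68.44 and 69.66% in TFEB-KD, without overlap (p = 0.1, exact test).

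**Figure D3:**
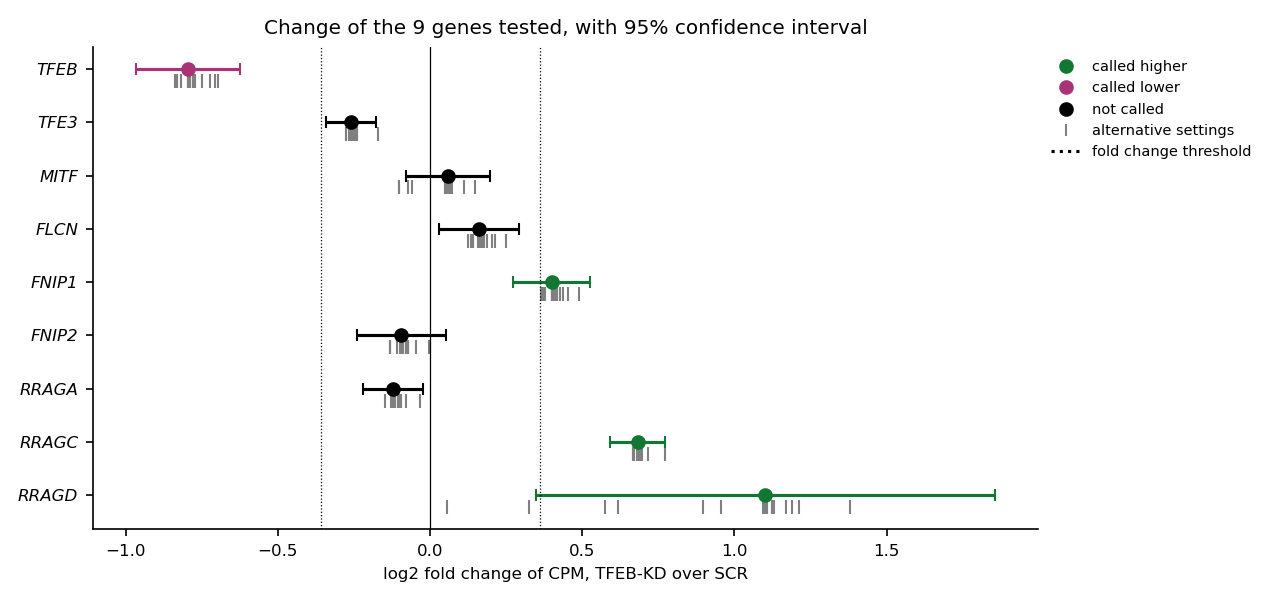
log2 fold change of CPM, TFEB-KD over SCR, for the 9 tested genes (points with 95% confidence intervals from edgeR), with the 0.36 threshold in either direction as dotted lines and each alternative analysis as a grey mark. The points of RRAGC, FNIP1 and RRAGD lie above the upper threshold and that of TFEB below the lower one. The FNIP1 interval, 0.27 to 0.53, and the RRAGD interval, 0.35 to 1.86, cross the upper threshold, and the RRAGD interval is the widest.

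On the TPM scale, SCR levels ran from RRAGA (115.7 TPM) through TFE3 (60.0), RRAGC (19.3), FLCN (11.2), TFEB (8.77), MITF (4.53), FNIP1 (3.81), FNIP2 (2.46) and RRAGD (0.0967) to TFEC (0.0269). Of neighbours in this order, RRAGD and TFEC overlapped over the 3 libraries. In TFEB-KD, FNIP1 (5.20 TPM) stood just above TFEB (5.04 TPM), and the libraries of these genes overlapped. FNIP1 also stood above MITF (4.30 TPM) in TFEB-KD and below it in SCR, without overlap in either group. The order of the other 9 genes among themselves was the same in both groups.

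Counts divided by TPM are proportional to the mean effective length of a gene's transcripts in a library, so this ratio was used to see whether the mix of transcripts differed. It was log2-transformed and centred on the median of each library. The groups did not overlap for 2 of the 9 genes, MITF and TFEB, against 9.35% of 16730 genes. With a library left out this number was up to 5 (without SCR replicate 2). Groups separate more easily with fewer libraries, and the share of all genes was not computed there, so 9.35% is no measure for that number. For MITF the values were 0.78, 0.92 and 0.89 in SCR and 1.09, 1.03 and 0.99 in TFEB-KD, a difference of 0.17, and p was 0.1 in the exact two-sided permutation test. The MITF transcripts counted in TFEB-KD were on average longer (112.8% of SCR), and the mean level of MITF was 13.9 CPM in SCR and 14.5 CPM in TFEB-KD but 4.53 and 4.30 on the TPM scale. A larger length difference than that of MITF was seen in 12.2% of genes, and the central 95% of genes ran from -0.41 to 0.26. The TFEB difference was 0.048, and its groups overlapped when centring used only genes with at least 100 counts. In SCR replicate 3, RRAGD had a value of -0.17, against 1.21 to 1.29 in the other 5 libraries, from 12 counts.

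**Figure D4:**
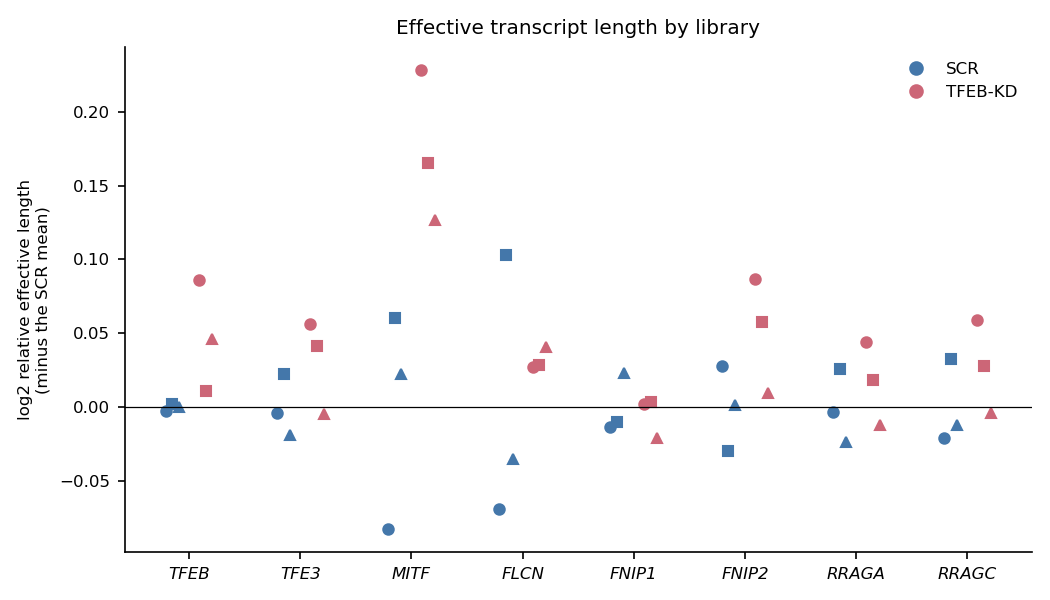
log2 relative effective transcript length by library for 8 genes, minus the SCR mean of each gene (TFEC and RRAGD left out for their low counts). The 3 TFEB-KD points of MITF lie above all 3 SCR points.

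The genes that act around these factors were read from 8 lists with 90 genes, of which 88 were tested. Of these, 10 were called higher (11.4%) and 8 lower (9.09%), against 9.99% and 15.0% of all genes. The median log2 fold change was 0.077 over the lists and 0.0033 over all genes. Without TMM factors (scaling by library size only), 18 were called higher and 5 lower, and that scaling gave 2497 higher and 2047 lower over all genes. All adjusted p-values that follow are edgeR values, adjusted over all 16931 genes (Benjamini-Hochberg).

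Of the 7 genes of the Rag and Ragulator scaffold, which tethers the Rag GTPases to the lysosome, 1 was called higher and none lower (median 0.074). SLC38A9, the lysosomal arginine transporter that signals to the Rags, rose from 9.37 ± 0.753 to 13.8 ± 0.102 CPM (log2 fold change 0.56, SE 0.072, adjusted p = 1.17e-04). The Ragulator subunits LAMTOR4 (-0.16) and LAMTOR5 (0.16) were not called. In the complex of C9orf72, SMCR8 and WDR41, which structurally resembles FLCN with FNIP2, 2 of 3 genes were called higher (median 0.37). C9orf72 had 2.44, 2.20 and 1.99 CPM in SCR and 5.22, 4.94 and 4.47 CPM in TFEB-KD, the largest change among the tested genes of these lists (log2 fold change 1.13, SE 0.12, adjusted p = 3.19e-05). SMCR8 rose by 0.37 on the log2 scale, which is close to the threshold, and WDR41 was at -0.14.

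Of the 12 genes of GATOR1, GATOR2 and KICSTOR, which set the nucleotide state of RagA, none was called higher and 2 lower (median 0.014). These were the KICSTOR subunits KPTN (-0.40) and KICS2 (-0.363). KICS2 was just past the threshold, and on the TPM scale it was at 2.52 ± 0.0779 in SCR and 2.58 ± 0.374 in TFEB-KD. SEC13 (-0.29) and the GATOR1 subunit NPRL3 (0.34) had small adjusted p-values and did not reach the threshold. Of 6 tested subunits of AMPK, an energy sensor that phosphorylates FNIP1, 2 were called lower (median -0.054). PRKAG2 fell from 17.4 to 11.8 CPM (log2 fold change -0.56, adjusted p = 3.57e-05) and PRKAA2 by 0.76 on the log2 scale from 1.97 CPM, whereas PRKAA1, the more abundant catalytic subunit, was at 0.27 and not called.

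The list of kinases of MiT/TFE factors held 14 genes, among them the mTORC1 subunits RPTOR and MLST8 and the GTPase RHEB, which are not kinases. None of the 14 was called in either direction (median -0.045), and 8 had an adjusted p under 0.05, against 44.7% of all genes. AKT1 was just inside the threshold at -0.357, and GSK3A and GSK3B were at 0.29 and 0.33. Among 8 phosphatase genes, PPP3R1, the regulatory subunit of calcineurin, which dephosphorylates TFEB, rose from 71.9 ± 2.21 to 94.3 ± 0.414 CPM (log2 fold change 0.39, adjusted p = 2.31e-05), and the other 7 were not called. Of these, the protein phosphatase subunits PPP2CA and PPP2R1A were at 0.29 and -0.12. Among the 14-3-3 proteins and exportin, which retain or export the factors, YWHAE was called lower of 8 genes, from 655.9 to 477.4 CPM (log2 fold change -0.46, adjusted p = 6.58e-06). YWHAH (-0.33) and YWHAQ (0.25) did not reach the threshold.

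The CLEAR and other MiT/TFE target list held 31 genes, mainly of lysosomes and autophagy. Of these, 30 were tested, 6 were called higher and 3 lower (median 0.18), against 9.99% and 15.0% of all genes. The study's PCR primers covered 6 of these targets, SQSTM1, CTSD, CTSB, NEU1, ATP6V0D1 and MCOLN1. SQSTM1, an autophagy receptor, had 700.4, 652.9 and 696.6 CPM in SCR and 1020, 965.8 and 991.0 CPM in TFEB-KD (log2 fold change 0.54, adjusted p = 4.66e-06). CTSD, the lysosomal protease cathepsin D, rose from 424.8 ± 20.2 to 633.1 ± 3.32 CPM (log2 fold change 0.58, adjusted p = 2.83e-06). NEU1 (0.23), ATP6V0D1 (0.16) and MCOLN1 (0.28) had adjusted p-values under 0.05 but did not reach the threshold, and for these 3 the TFEB-KD libraries lay above the SCR libraries, as for SQSTM1 and CTSD. CTSB, the most abundant gene of the list, lay the other way, with 2162, 2197 and 2275 CPM in SCR and 2109, 2105 and 2031 CPM in TFEB-KD (log2 fold change -0.087, adjusted p = 0.109).

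The other targets called higher were GLA (0.75), ATP6V1A (0.56), CLCN7 (0.54) and PIP4P1 (0.41), which encode alpha-galactosidase A, a catalytic subunit of the proton pump, a lysosomal chloride transporter and a lysosomal lipid phosphatase. Those called lower were WIPI1 (-0.52), an autophagosome protein, and the lysosomal enzymes NAGLU (-0.53) and TPP1 (-0.45). Lysosomal enzymes were thus called in both directions. The summed level of the list was 4107 ± 109 TPM in SCR and 4638 ± 201 TPM in TFEB-KD (SD, n = 3), and the groups did not overlap. These sums carry no TMM factors, which were 0.955 to 0.982 in SCR and 1.030 to 1.033 in TFEB-KD. The nearest libraries were SCR replicate 3 (4227 TPM, factor 0.955) and TFEB-KD replicate 3 (4442 TPM, factor 1.032). Divided by its factor, SCR replicate 3 lies above TFEB-KD replicate 3, so the groups overlap on that scale.

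**Figure D5:**
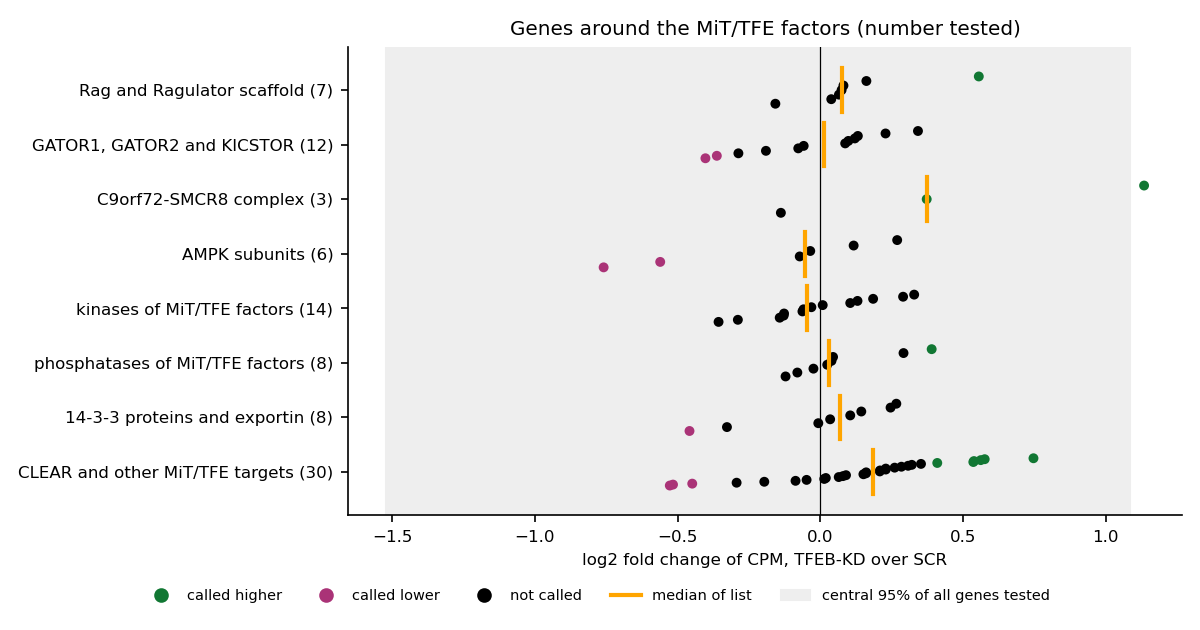
log2 fold change of CPM, TFEB-KD over SCR, for each tested gene of 8 lists (1 point per gene, list medians in orange, the central 95% of all genes tested, -1.52 to 1.09, in grey). The medians lie between -0.054 and 0.37, and C9orf72 (1.13) is the one point right of the grey band.

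Markers of cell types were read to check the labelled fibroblast identity. The fibroblast markers were abundant, with VIM the highest at 4122 TPM in SCR and 4155 TPM in TFEB-KD, and all 10 were tested. Of these, 2 were called higher and 6 lower, against 9.99% and 15.0% of all genes, and their summed level went from 11800 to 9093 TPM. The collagen genes COL1A1 (1941 to 695.5 TPM) and COL1A2 (2039 to 899.9 TPM) fell, while PDGFRA (15.1 to 43.3 TPM) and DCN (147.6 to 280.7 TPM) rose. Melanocyte markers are relevant to MITF: 9 of the 10 were under 1 TPM, with TYR at 0 in all libraries, and the exception was MLPH at 30.2 TPM in SCR and 21.3 TPM in TFEB-KD. The sum of the melanocyte markers was 31.1 ± 0.289 TPM in SCR and 22.0 ± 0.931 TPM in TFEB-KD. KRT10 (68.7 and 62.6 TPM) was the one keratinocyte marker above 1 TPM, and all 5 endothelial and all 5 macrophage markers were under 1 TPM, with TEK and CD14 the most abundant. The markers' part in the changes of the 10 genes was not tested.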

How the data were processed

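RNA was measured in 3 SCR and 3 TFEB-KD libraries of HFF-2 HDFs. Reads were trimmed with Trim Galore, aligned with STAR 2.7.10a and quantified with Salmon 1.10.1 by the nf-core pipeline against hg38 with GENCODE annotation, per the submitters' processing notes and the study's methods. The GENCODE release and the strandedness of the counting are not given in the sources used here. The authors deposited estimated counts, not normalized between libraries, and TPM, which are scaled for transcript length and library total. Their own DESeq2 comparison (fold changes and p-values) was not used.

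Counts were rounded, filtered by filterByExpr, scaled by TMM and compared in R 4.3.3 with edgeR 4.0.16 (glmQLFit, glmQLFTest) without a replicate block, with Benjamini-Hochberg adjustment over 16931 genes. Standard errors were derived from the F statistic of each gene (fold change over its root, log2 scale). TPM measures were compared by exact two-sided permutation tests. Alternatives were DESeq2 1.42.0, limma 3.58.1 on log2(TPM + 1) and log2(TPM + 0.1), other scalings and gene filters, length offsets, glmTreat, a replicate block and each library left out. The code was tested on simulated data.

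The members and lists were chosen with earlier results of these data known. The genes named were the members, in each list the 3 with the smallest adjusted p, 5 genes of the study's PCR primers, the most abundant marker of each cell type and the 5 genes most like TFEB; CTSB, other genes called in a list, the 3 genes other than kinases in the kinase list and the other markers were named after their values were seen. Overlapping annotated genes of FLCN, FNIP1, RRAGC and TFEB had 0 counts. Reads that RRAGA shares with its paralog RRAGB were split by Salmon. Promoter sequences are from RefSeq (GRCh38.p14), and coordinates from GENCODE 44.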

Additional observations from a re-analysis of the deposited data

How the results depend on the processing

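The call of TFEB, TFE3, MITF, FLCN, FNIP2, RRAGA and RRAGC was the same in all 19 alternatives. The sign of MITF reversed with transcript length, to -0.10 in DESeq2 with length factors, -0.10 in edgeR with length offsets, -0.072 in limma on log2(TPM + 0.1) and -0.060 in limma on log2(TPM + 1). RRAGD lost its call in 10 of 18 alternatives and could not be tested with at least 10 counts in every library. With glmTreat, which tests against the threshold itself, 1 of the 9 genes was called higher and 1 lower. By that test 7 pathway genes were called higher and 4 lower, and 788 genes higher and 1573 lower in all. With library sizes alone, 18 pathway genes were called higher and 5 lower, and the median log2 fold change of all genes was 0.093. The number of pathway genes called lower by limma was 5 on log2(TPM + 0.1) and 4 on log2(TPM + 1), and the number of all genes called lower on the latter was 1668; the cause was not tested.

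The TFEB-KD minus SCR difference in the RRAGD share was -0.0564 percentage points, 0.228 on the CPM scale, and -0.202 to 0.122 with each library left out; it turned positive without SCR replicate 3, which held 0.855%. The number of genes without overlap in effective length was 1 when centred on genes with at least 100 counts, and 2 to 5 with each library left out (5 without SCR replicate 2, 4 without TFEB-KD replicate 3). The share of all genes was not computed with a library left out.

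Same-numbered libraries had deviation correlations of -0.107, 0.0402 and 0.0196. Those of differently numbered libraries across the groups ran from -0.111 to 0.0867, so no pairing by number was visible. With 3 libraries per group these values cannot exclude that libraries were prepared in pairs. With a replicate block, the TFEB log2 fold change was -0.80, 1595 genes were called higher and 2450 lower, and the same 4 members were called. Depth limits RRAGD, at 6 to 35 counts per library, and TFEC, at 0 to 5.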

Other observations

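The 5 genes whose log2 CPM, centred on the mean, lay closest to that of TFEB over the 6 libraries, among 9248 genes with a mean of at least 10 CPM, were SARM1, an NAD hydrolase (root mean square distance 0.0365), TANC1, a scaffold protein (0.0429), SLC27A1, a fatty acid transporter (0.0469), ALDH18A1, an enzyme of proline synthesis (0.0474), and PCDH18, a protocadherin (0.0506). SARM1 went from 17.1 ± 1.09 to 10.1 ± 0.713 CPM (SD, n = 3), and ALDH18A1 from 147.6 ± 8.99 to 83.8 ± 4.81 CPM.

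In the CLEAR and other MiT/TFE target list, 17 of 31 genes had a promoter entry and 11 of the 17 held CACGTG, against 12.2% of tested genes with a window. These genes were listed as targets of factors that bind E-boxes, so no conclusion was drawn from this share. Of these 11 genes with CACGTG, CTSD and CLCN7 were called higher, and NEU1, ATP6V0D1, MCOLN1, CTSA, CTSF, GAA, LAMP1 and VPS11 were not called. PPARGC1A was not tested. Among all tested genes with CACGTG in a window, 10.5% were called higher and 13.4% lower.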
